A study of Mus musculus with 2 samples.

Results

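The 10 genes described here encode secondary granule and acute-phase proteins of the neutrophil: Camp, Ngp, Ltf, Lcn2, Wfdc21, Chil3, Fcnb, Orm1, Hp and Pglyrp1. They were taken by name from the UMI count tables of the bone marrow, and all 10 were listed in both tables, out of 13211 genes listed in either. The study asked how loss of type I collagen from Fsp1-lineage cells affects the bone marrow. It profiled live-sorted marrow cells, flushed from femur and tibia of 2-month-old littermates, by 10x Genomics single-cell RNA-sequencing (sc-RNA-seq). Col1a1fspKO mice carried the genotype Fsp1-Cre;Col1a1flox/flox, and WT mice were the Cre-negative littermates, which carry the same floxed Col1a1 alleles. Fsp1-Cre is driven by the promoter of S100a4, the gene for fibroblast-specific protein 1, and deletes exons 2 to 5 of Col1a1 in cells of that lineage. Each genotype had 1 library, made from the pooled marrow of 2 mice, so the mice of a group cannot be told apart, no genotype had a replicate, and no test between the genotypes was made.

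Neutrophils mature in the bone marrow by filling successive sets of granules. Primary granules are made at the promyelocyte stage, secondary or specific granules at the myelocyte and metamyelocyte stages, and tertiary granules later still, so a granule protein largely reflects the stage at which its gene was transcribed. The transcription factor C/EBP epsilon, encoded by Cebpe, is required for the secondary granule genes. Acute-phase proteins are best known from the liver, which secretes them into plasma during inflammation, but some of them, haptoglobin and lipocalin-2 among them, are also stored in neutrophil granules.

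The WT library held 1169 cells and 8624469 UMIs, and the Col1a1fspKO library held 1309 cells and 8647722 UMIs. A UMI, or unique molecular identifier, marks 1 captured mRNA molecule at its 3' end, and levels are given as UMIs per 1000000 UMIs of a cell class (CPM), which needs no division by gene length. The median cell had 5534 UMIs in WT and 4954 in Col1a1fspKO, and 2 cell barcodes occurred in both libraries. Col1a1 itself had 0 UMIs in WT and 3 in Col1a1fspKO over all cells. That does not check the deletion, because the 3' end that is counted lies outside the deleted exons. S100a4 was at 253 CPM over all cells in WT and 234 CPM in Col1a1fspKO, but at 32.5 and 26.3 CPM in the preneutrophil-like cluster described next.

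Clustering without the 10 genes, their relatives, the Ly6 genes and sex-linked genes gave 15 clusters, of which 4 were neutrophil clusters. They were named for their stage from known markers. The preneutrophil-like cluster held 121 WT and 88 Col1a1fspKO cells, the immature cluster 181 and 196, the maturing cluster 115 and 184, and the mature cluster 11 and 47. All neutrophil clusters together held 428 WT and 515 Col1a1fspKO cells. The lowest UMI total of a cell was 2909 in WT and 2540 in Col1a1fspKO. The median Col1a1fspKO mature cell, with 2855 UMIs, lay below every WT cell. How this unequal floor affects the cell numbers was not tested. Among the 10 leading genes of the maturing cluster were 2 markers of its own stage and 2 of the mature stage, and among those of the immature cluster 1 of its own stage and 1 of another, so the borders between neighbouring stages are not sharp. The mature cluster was led by stefin genes, Il1f9 and Asprv1, and also by Acta2. The 95% intervals in brackets are exact Poisson intervals for levels and exact binomial intervals for ratios and shares, and cover counting error only.

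The 10 genes lie on 7 chromosomes (GRCm38/mm10, GENCODE annotation), and no other annotated gene overlaps them. Camp (chr9:109847379-109849617, minus strand), Ngp (chr9:110419747-110423012, plus strand) and Ltf (chr9:111019271-111042767, plus strand) lie within 1.195 Mb of each other. That stretch holds 28 other protein-coding genes, of which 15 were listed and 5 had at least 50 UMIs in neutrophils. The highest of them in immature cells, Ccdc12, was at 199 CPM in WT and 207 CPM in Col1a1fspKO, far below the 3 granule genes. Lcn2 (chr2:32384633-32388252) and Fcnb (chr2:28076378-28084885) share chromosome 2 on the minus strand. Chil3 lies at chr3:106147554-106167564 (minus), Orm1 at chr4:63344560-63348163 (plus), Pglyrp1 at chr7:18871331-18890459 (plus), Hp at chr8:109575128-109579172 (minus) and Wfdc21 at chr11:83746940-83752642 (plus).

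Promoter sequences are shown for 4 genes that stand for the stage patterns described below: Fcnb and Chil3, highest in preneutrophils, Ngp, high in preneutrophils and immature cells, and Ltf, highest in immature cells. They are from RefSeq (GRCm38.p6), run 5′ to 3′ on the gene's strand, and end at the base before the annotated gene start, with bases that overlap an annotated exon left out. Capitals mark matches to TTNNGNAA on either strand, a form of the motif that C/EBP factors bind.
Fcnb, chr2:28084886-28085128, minus strand: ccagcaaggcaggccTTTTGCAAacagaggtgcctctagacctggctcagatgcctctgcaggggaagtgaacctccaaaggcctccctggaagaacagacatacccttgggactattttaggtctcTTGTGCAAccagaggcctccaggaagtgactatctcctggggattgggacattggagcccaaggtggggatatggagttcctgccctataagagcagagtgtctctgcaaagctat
Chil3, chr3:106167565-106167814, minus strand: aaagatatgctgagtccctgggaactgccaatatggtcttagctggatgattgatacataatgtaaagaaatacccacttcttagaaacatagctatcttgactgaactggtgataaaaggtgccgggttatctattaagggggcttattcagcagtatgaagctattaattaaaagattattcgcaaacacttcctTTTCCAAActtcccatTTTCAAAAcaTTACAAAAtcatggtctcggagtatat
Ngp, chr9:110419558-110419746, plus strand: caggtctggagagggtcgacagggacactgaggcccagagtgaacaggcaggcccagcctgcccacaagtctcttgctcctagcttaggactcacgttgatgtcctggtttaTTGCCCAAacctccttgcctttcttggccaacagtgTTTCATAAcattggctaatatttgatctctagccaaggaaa
Ltf, chr9:111019042-111019270, plus strand: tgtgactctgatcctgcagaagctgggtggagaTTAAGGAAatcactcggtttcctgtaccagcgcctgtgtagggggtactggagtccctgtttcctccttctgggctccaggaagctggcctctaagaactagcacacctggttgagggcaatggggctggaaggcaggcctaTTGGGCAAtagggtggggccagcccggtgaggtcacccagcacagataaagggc
The table held promoters for 7 of the 10 genes, Camp, Ltf, Lcn2, Ngp, Chil3, Fcnb and Pglyrp1. For each of these 7 but Chil3, the 250 bases before the RefSeq start run into an annotated exon of the gene. The windows of Lcn2 and Pglyrp1 lie wholly inside the annotated gene, so their matches do not lie before the annotated gene start. In these 250 bases TTNNGNAA (or TTNCNNAA, its reverse) was found in 5 of these 7 (Ltf, Lcn2, Ngp, Chil3 and Fcnb), against 36.9% of 27025 promoters. CCAAT (or ATTGG) was found in 4 of 7 (Ltf, Ngp, Chil3 and Fcnb), against 34.5%. The purine-rich string GAGGAA (or TTCCTC), found in sites of ETS factors such as PU.1, occurred in 3 of 7 (Ltf, Lcn2 and Pglyrp1), against 23.1%. TATAAA (or TTTATA) occurred in 0 of 7, against 12.97%. In Ltf 1 match overlaps a CCAAT match, and a further Ngp match lies in exon bases that are not shown. These are matches of letters, not sites shown to be bound.

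The 10 genes took up a large part of the neutrophil transcriptome in both genotypes. In preneutrophils they accounted for 13.7% of all UMIs in WT and 13.6% in Col1a1fspKO, in immature cells for 14.8% and 15.2%, and in maturing cells for 9.51% and 9.92%. In mature cells the share was 3.49% in WT and 3.07% in Col1a1fspKO. The fall from immature to mature cells was seen in both libraries, while S100a8 and S100a9, the abundant cytosolic calprotectin genes, stayed at a median of 38.6% and 36.9% of a mature cell's UMIs, against 36.9% and 35.9% in immature cells. Over all neutrophil clusters the 10 genes made up 13.2% of UMIs in WT and 12.6% in Col1a1fspKO, and in the cells outside these clusters 0.378% and 0.473%.

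**Figure D1:**
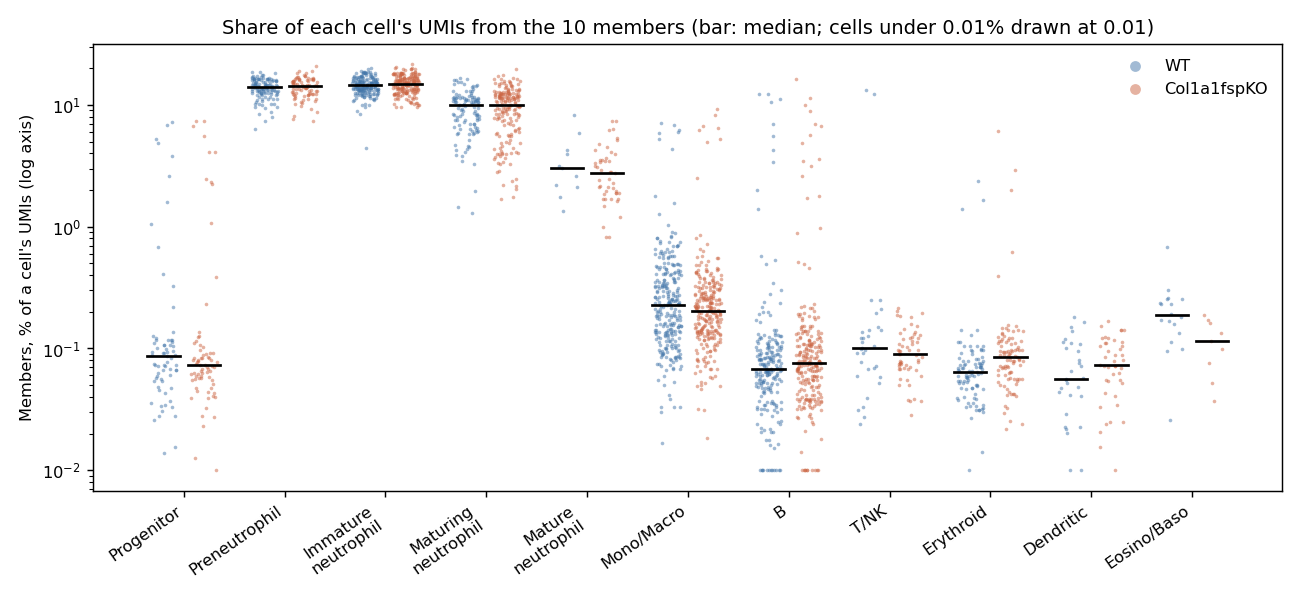
Share of each cell's UMIs that came from the 10 genes, on a log axis, with 1 point per cell, WT in blue, Col1a1fspKO in orange and a bar at the median of each class. Median shares were 14.5% and 14.96% in immature neutrophils of WT and Col1a1fspKO, 3.01% and 2.75% in mature ones, and 0.229% and 0.204% in Mono/Macro-like cells, and a few cells of other classes lie at neutrophil levels.

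In both libraries each of the 10 genes was higher in preneutrophils than in progenitor-like cells, and from there on they parted into 4 patterns. Fcnb and Chil3 were highest in preneutrophils, and Camp, Ngp and Orm1 were high in both preneutrophils and immature cells. Orm1 fits that group less well in WT, at 1.43 times (1.19 to 1.71) its preneutrophil level in immature cells. Ltf, Lcn2 and Wfdc21 were highest in immature cells, and Hp and Pglyrp1 were highest in mature cells. The stages are clusters of the same cells, so these are descriptions of 2 libraries, with counting intervals and no test. CPM is a share of a class's UMIs, and depth fell with stage. The median preneutrophil had 8585 UMIs in WT and 8375.5 in Col1a1fspKO, the median immature cell 4236 and 4347. Maturing cells had 3609 and 3297.5, and mature cells 3117 and 2855. A higher CPM at a later stage therefore need not mean more UMIs per cell.

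**Figure D2:**
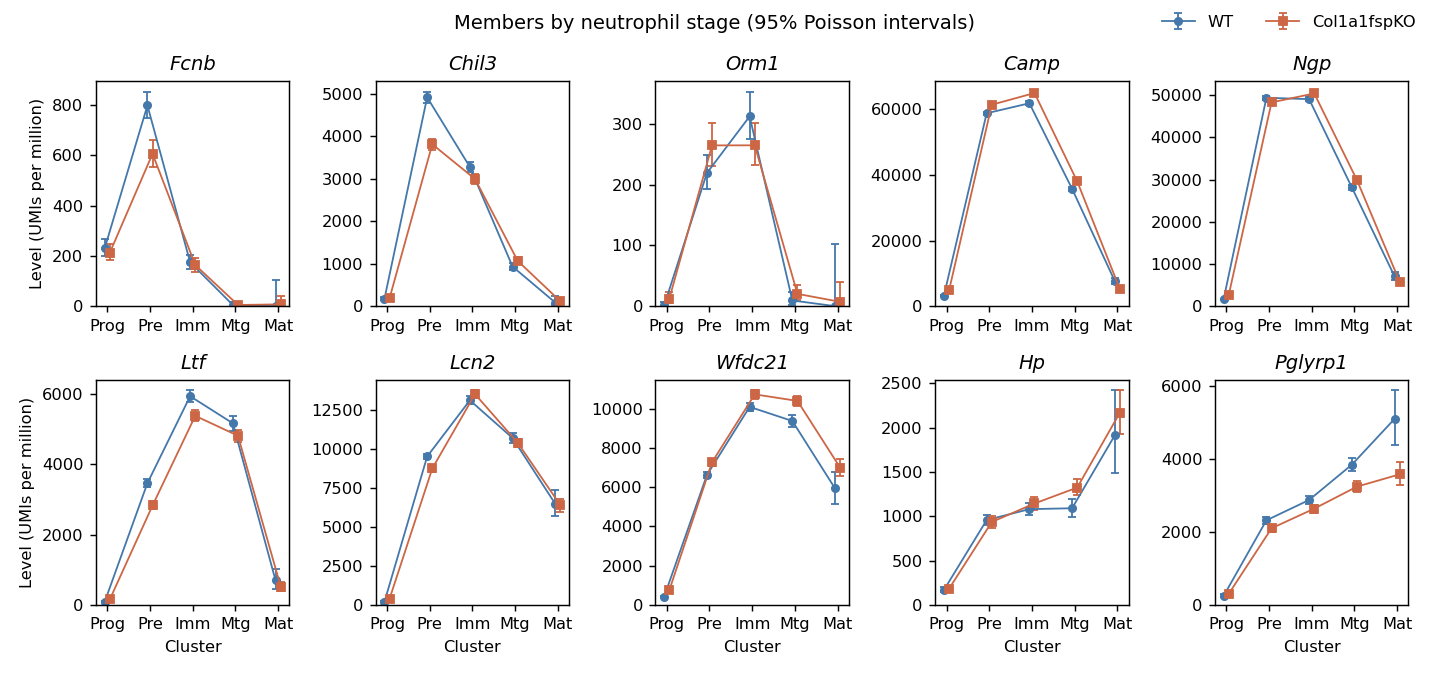
Level of each gene (CPM, linear axes from 0, a different scale for each gene) in progenitor-like (Prog), preneutrophil-like (Pre), immature (Imm), maturing (Mtg) and mature (Mat) clusters, all progenitor-like cells included, with WT as blue circles, Col1a1fspKO as orange squares and bars for 95% Poisson intervals. Fcnb and Chil3 peak at Pre, Ltf, Lcn2 and Wfdc21 at Imm, and Hp and Pglyrp1 are highest at Mat in both libraries.

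Fcnb encodes ficolin B, a lectin that recognises microbial sugars and activates complement. It rose from 230 CPM (199 to 265) in WT progenitor-like cells to 798 (746 to 852) in preneutrophils, and then was at 174 (147 to 205) in immature cells. In Col1a1fspKO the same levels were 213 (182 to 247), 606 (554 to 661) and 163 (138 to 193) CPM. The progenitor-like level rested on few cells: without the 9 WT and 10 Col1a1fspKO cells in which S100a8 and S100a9 made up at least 2% of UMIs, Fcnb was at 29.0 (17.9 to 44.3) and 7.83 (2.54 to 18.3) CPM there. Fcnb had few UMIs beyond the immature cluster: maturing cells held 2 WT and 3 Col1a1fspKO UMIs, and mature cells 0 and 1. Chil3 encodes Ym1, a chitinase-like lectin made by neutrophils and by some monocytes and macrophages. It was lower at each step, in WT from 4918 CPM (4788 to 5050) in preneutrophils to 3278 (3155 to 3403) in immature, 931 (842 to 1027) in maturing and 83.2 (17.2 to 243) in mature cells. In Col1a1fspKO the levels were 3812 (3681 to 3947), 2995 (2881 to 3112), 1066 (988 to 1149) and 114 (64.9 to 184). The drop is steep in both libraries, although mature cells gave only 3 WT and 16 Col1a1fspKO UMIs of Chil3.

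Camp encodes the precursor of the cathelicidin peptide CRAMP, and Ngp encodes a granule protein of the cathelicidin and cystatin families. They were the most abundant of the 10 genes in preneutrophils, immature and maturing cells, while in Col1a1fspKO mature cells Wfdc21 and Lcn2 were higher. Camp was at 58848 CPM (58397 to 59301) in WT preneutrophils, 61901 (61365 to 62440) in immature, 35796 (35231 to 36367) in maturing and 7656 (6779 to 8615) in mature cells. In Col1a1fspKO it was at 61455 (60925 to 61989), 65022 (64487 to 65561), 38072 (37597 to 38552) and 5164 (4796 to 5553). Camp thus stayed level from preneutrophils to immature cells and then fell to 0.124 of its immature level in WT (0.109 to 0.139) and to 0.0794 in Col1a1fspKO (0.0737 to 0.0854). Ngp followed the same course, at 49393, 49063, 28147 and 7074 CPM in WT, and at 48287, 50420, 29882 and 5802 CPM in Col1a1fspKO. Orm1, the gene for the acute-phase protein alpha-1-acid glycoprotein, was the least abundant of the 10 over all neutrophil clusters, at 211 CPM in WT and 187 in Col1a1fspKO, though above Fcnb in immature cells. It was at 219 CPM (192 to 248) in WT preneutrophils and 312 (275 to 353) in immature cells, against 265 (231 to 302) and 265 (232 to 301) in Col1a1fspKO. After that few UMIs were left: 4 WT and 13 Col1a1fspKO UMIs in maturing cells, and 0 and 1 in mature cells.

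Ltf encodes lactoferrin, which binds iron, and Lcn2 encodes lipocalin-2, which binds bacterial siderophores. Ltf was at 3463 CPM (3354 to 3574) in WT preneutrophils, 5938 (5773 to 6106) in immature, 5166 (4952 to 5386) in maturing and 693 (449 to 1024) in mature cells. In Col1a1fspKO these were 2827 (2714 to 2943), 5378 (5225 to 5535), 4812 (4644 to 4985) and 518 (406 to 651). As a share of UMIs, Ltf thus rose after the preneutrophil stage, while Camp and Ngp stayed level. Its level in immature cells was 1.71 times that in preneutrophils in WT (1.64 to 1.79) and 1.90 times in Col1a1fspKO (1.81 to 2.0). Lcn2 also peaked in immature cells, at 13104 CPM (12858 to 13353) in WT and 13500 (13257 to 13746) in Col1a1fspKO, from 9502 and 8735 CPM in preneutrophils. It was still at 6463 CPM (5660 to 7349) in WT and 6377 (5967 to 6808) in Col1a1fspKO mature cells. Wfdc21, of the family of whey acidic protein domains, behaved like Lcn2, with 10098 CPM (9882 to 10317) in WT and 10736 (10520 to 10956) in Col1a1fspKO immature cells, and 5936 (5168 to 6787) and 6994 (6564 to 7445) in mature cells. The secondary granule genes thus did not fall alike: the mature level was 0.117 of the immature level for Ltf in WT and 0.0963 in Col1a1fspKO, but 0.493 and 0.472 for Lcn2 and 0.588 and 0.651 for Wfdc21.

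Hp encodes haptoglobin, the plasma protein that binds free haemoglobin, and Pglyrp1 encodes a peptidoglycan recognition protein that acts on bacterial cell walls. Both had their highest level in mature cells. Hp was at 957 CPM (900 to 1016), 1080 (1010 to 1153), 1090 (993 to 1194) and 1914 (1489 to 2422) in WT preneutrophil, immature, maturing and mature cells. In Col1a1fspKO it was at 935 (871 to 1003), 1144 (1074 to 1218), 1324 (1236 to 1416) and 2171 (1934 to 2428). In WT the intervals of neighbouring stages overlap up to the maturing cells and lie apart at the step to mature cells, whereas in Col1a1fspKO they lie apart at each step. Pglyrp1 was at 2320 (2231 to 2411), 2878 (2764 to 2996), 3846 (3663 to 4037) and 5104 (4393 to 5897) CPM in WT, and at 2100 (2003 to 2201), 2640 (2533 to 2751), 3244 (3107 to 3386) and 3582 (3277 to 3909) in Col1a1fspKO. In CPM it climbed at each step in both libraries, though in Col1a1fspKO the intervals of its levels in maturing and mature cells overlap.

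The counts of genes past 2-fold in the same direction in both libraries put these patterns beside those of all genes. From progenitor-like cells to preneutrophils 10 of 10 rose past 2-fold, against 8.04% of all genes with at least 50 UMIs over both clusters in each library, on a scale of log2(CPM + 10). The rise in WT ran from 3.47-fold (2.96 to 4.07) for Fcnb to 50.4-fold (43.1 to 59.3) for Lcn2, and for Orm1, with 1 UMI in WT progenitor-like cells, the ratio was 185 (32.8 to 7323). Sizes and order depended on the progenitor-like cells high in S100a8 and S100a9. Without them 10 of 10 were again past 2-fold, against 10.7% of all genes, but the WT ratio was 27.6 (17.9 to 44.7) for Fcnb, 157 (117 to 216) for Lcn2 and 162 (143 to 183) rather than 18.3 (17.6 to 19.0) for Camp, and it was lowest for Hp, at 9.13 (7.23 to 11.7). From preneutrophils to immature cells only Fcnb of the 10 was past 2-fold, lower, against 11.1% of all genes. From immature to maturing cells 3 of 10 were lower (Chil3, Fcnb and Orm1; 5 with CCA integration of the libraries), against 2.22%, and from maturing to mature cells 4 of 8 (Camp, Ltf, Ngp and Chil3), against 2.03%. Between immature and mature cells 7 of 10 were lower (Camp, Ltf, Lcn2, Ngp, Chil3, Fcnb and Orm1), against 13.2%, and 0 were higher past 2-fold, against 6.83%, with Hp at 1.77 in WT (1.37 to 2.27) and 1.90 in Col1a1fspKO (1.66 to 2.16). Because the minimum was set on both clusters together, a gene with few UMIs in 1 of them could be called in 1 direction only. That holds for Fcnb and Orm1 beyond the immature cluster, for Chil3 in mature cells and for Orm1 in progenitor-like cells. The 10 were chosen as neutrophil genes, so their rise from progenitor-like cells describes them and is no test.

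The maturing cluster spans a range of states, and the split between the genes was also seen inside it. Its cells were put in quartiles by their UMIs of Retnlg, a gene for a resistin-like protein that is high in late marrow neutrophils, after every cell had been thinned to 2500 UMIs. Retnlg was itself among the markers used to name the neutrophil class and the mature stage. The order is therefore not independent of the stages. The lowest quartile, with 0 to 16 Retnlg UMIs, held 32 WT and 40 Col1a1fspKO cells, and the highest, with 77 to 231, held 26 and 49. Camp fell from 48812 CPM (47559 to 50090) in the lowest to 39122, 33901 and 17102 (16283 to 17953) in the highest quartile in WT. In Col1a1fspKO it fell from 53230 (52049 to 54432) to 46312, 37402 and 16401 (15772 to 17048). Fcnb and Orm1 had too few UMIs in these cells to be followed. Among the other 8 genes the ratio of the highest to the lowest quartile was lowest for Chil3, 0.169 in WT and 0.161 in Col1a1fspKO. It was 0.280 and 0.268 for Ltf, 0.358 and 0.278 for Ngp, 0.587 and 0.668 for Wfdc21 and 0.705 and 0.693 for Lcn2. Pglyrp1 went the other way, at 1.38 in WT and 1.32 in Col1a1fspKO. Hp was at 1.24 and 1.35, but in WT its intervals in the lowest (805 to 1171 CPM) and highest quartile (995 to 1447) overlap. In Col1a1fspKO those intervals lie apart, at 959 to 1312 and 1334 to 1727 CPM.

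**Figure D3:**
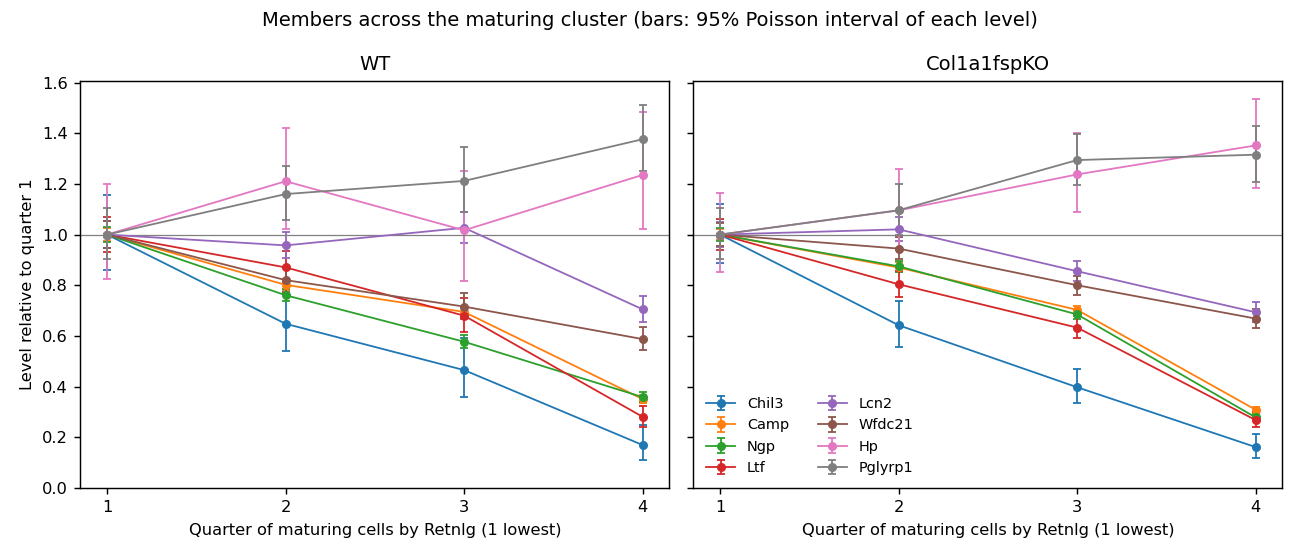
Level of 8 of the 10 genes in quartiles of the maturing cluster ordered by Retnlg, relative to quartile 1, in WT (left) and Col1a1fspKO (right), with bars for the 95% Poisson interval of each level. Chil3, Camp, Ngp and Ltf fall at each step in both libraries, to between 0.161 and 0.358 of quartile 1, whereas Hp and Pglyrp1 end above 1.

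From cell to cell the genes went together only in part. In maturing cells Camp and Ngp had a Pearson correlation of log2(CPM + 10) of 0.811 in 115 WT cells and 0.888 in 184 Col1a1fspKO cells, Camp and Ltf of 0.725 and 0.752, and Ltf and Ngp of 0.774 and 0.714. In immature cells, where these genes were near their peak, Camp and Ngp were at 0.356 in WT and 0.212 in Col1a1fspKO, and Camp and Ltf at -0.071 and -0.160. The median over all 45 pairs was between 0.044 and 0.081 in the immature and maturing clusters. The cells of a library share its depth and preparation, all were thinned to 2500 UMIs, and these correlations are descriptions of cells within 1 library.

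Over 25 units, each a cluster in 1 library, the gene whose pattern was most like the mean of the 10 genes was S100a8, with a Pearson correlation of 0.967 among 5922 genes. Next came B230208H11Rik (0.961), S100a9 and Tnnt1 (0.957 each), Cebpe (0.953), Fam101b (0.953), Mapk13 (0.951), Trem3 (0.9495), Anxa1 (0.940) and Tnfsf13b (0.939). Among the 10 genes themselves, Camp and Ngp were the most alike, at 0.995, and Fcnb stood furthest from the others, at 0.432 with Ltf and 0.444 with Lcn2. The gene most like Wfdc21 was S100a8 (0.997), the one most like Lcn2 was S100a9 (0.987) and the one most like Hp was Mtus1 (0.983), while the best match to Chil3, Rhou, reached 0.886.

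Other granule genes, from lists put together with earlier results of these data known, were set beside the 10 genes. Cybb, Mmp8, Mmp9 and Cebpe were also among the markers used to name the stages, and Elane among those of the progenitor-like class. Their direction between the stages is therefore partly set by the naming and gives no independent support. Of 17 other secondary granule genes 16 were listed, and 13 had at least 50 UMIs over immature and mature cells in each library. Of these 13, Cybb, which encodes the large subunit of the NADPH oxidase, was the 1 gene lower past 2-fold in mature than in immature cells in both libraries, from 1366 to 139 CPM in WT and from 1199 to 156 in Col1a1fspKO. Mmp8, the neutrophil collagenase, and Cfp, properdin, were higher: Mmp8 rose from 591 to 3051 CPM in WT and from 495 to 2497 in Col1a1fspKO. Cebpe was lower in mature cells, going from 862 CPM in immature to 305 in mature cells in WT and from 849 to 70.9 in Col1a1fspKO. Cebpb, a related factor, went from 86.0 to 610 in WT and from 84.0 to 454 CPM in Col1a1fspKO. Mmp9, of the tertiary granules, rose from 369 to 1276 CPM in WT and from 378 to 1305 in Col1a1fspKO. Of 7 genes listed with the primary granules 0 reached that minimum. Elane, neutrophil elastase, was at 3761 CPM in WT and 2455 in Col1a1fspKO progenitor-like cells but at 4.84 and 3.45 in immature cells.

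Between the genotypes, no difference past 1.5-fold was seen within a neutrophil stage where the UMIs allowed a comparison. Of 35 pairs of gene and stage with at least 50 UMIs over both libraries, 0 were past 1.5-fold in either direction, and 3 were with each cell thinned to 2500 UMIs. Among all genes the share past 1.5-fold was 7.99% in preneutrophils, 7.74% in immature, 9.11% in maturing and 19.1% in mature cells. Most of these pairs had many more UMIs: 10, 10, 8 and 6 genes reached 200 UMIs, with 0 past 1.5-fold. Among all genes with at least 200 UMIs the share was only 1.99%, 1.93%, 2.29% and 8%, so 0 is near the share at that depth. The median log2 ratio of Col1a1fspKO over WT for the genes measured was -0.08 in preneutrophils, -0.03 in immature, 0.09 in maturing and -0.29 in mature cells, beside -0.04, -0.01, -0.03 and 0.09 over all genes. The ratio for Camp was 1.04 (1.03 to 1.06), 1.05 (1.04 to 1.06) and 1.06 (1.04 to 1.09) in preneutrophil, immature and maturing cells, and 0.675 (0.586 to 0.778) in mature cells, which rests on 11 WT cells. Pglyrp1 was below 1 in all 4 stages, at 0.905 (0.852 to 0.963), 0.917 (0.866 to 0.972), 0.844 (0.790 to 0.900) and 0.702 (0.592 to 0.835), and Ltf at 0.816 (0.775 to 0.860), 0.906 (0.870 to 0.943), 0.932 (0.882 to 0.984) and 0.747 (0.468 to 1.23). Wfdc21 was above 1 in all 4, between 1.06 and 1.18. Lcn2 stayed between 0.919 and 1.03. Without replicates, an interval that excludes 1 says only that the libraries differed beyond counting error.

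In preneutrophils the early genes Fcnb and Chil3 had the lowest ratios of the 10. Chil3 was at 4918 CPM in WT and 3812 in Col1a1fspKO, a ratio of 0.775 (0.742 to 0.810), and Fcnb at 798 and 606 CPM, a ratio of 0.759 (0.679 to 0.848). In immature cells the ratios were nearer to 1, at 0.914 (0.866 to 0.965) for Chil3 and 0.937 (0.738 to 1.19) for Fcnb. Over all neutrophil clusters Fcnb was at 430 CPM (404 to 457) in WT and 262 (242 to 283) in Col1a1fspKO, a ratio of 0.609 (0.552 to 0.673). It was 1 of 10 genes past 1.5-fold, against 12.7% of all genes in either direction and 8.21% in that one. The 155 cells under 2909 UMIs, the lowest total in WT, were all from Col1a1fspKO. Without them the ratio of Fcnb was 0.674, and 0 of 10 were past 1.5-fold. Chil3 followed with a ratio of 0.730 (0.707 to 0.754), and the other 8 lay between 0.887 for Orm1 and 1.14 for Hp. Preneutrophils, where Fcnb and Chil3 were highest, made up 121 of 428 neutrophils in WT and 88 of 515 in Col1a1fspKO. The cause of the lower pooled ratios was not tested. With the Col1a1fspKO classes weighted by the WT make-up, the ratio over all cells went from 0.697 to 0.826 for Fcnb and from 0.719 to 0.784 for Chil3. Over all cells 0 of 10 were past 1.5-fold (1, Fcnb, without the cells outside the neutrophils that were high in S100a8 and S100a9), against 5.93% of all genes, and Hp was the highest at 1.22 (1.17 to 1.28).

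**Figure D4:**
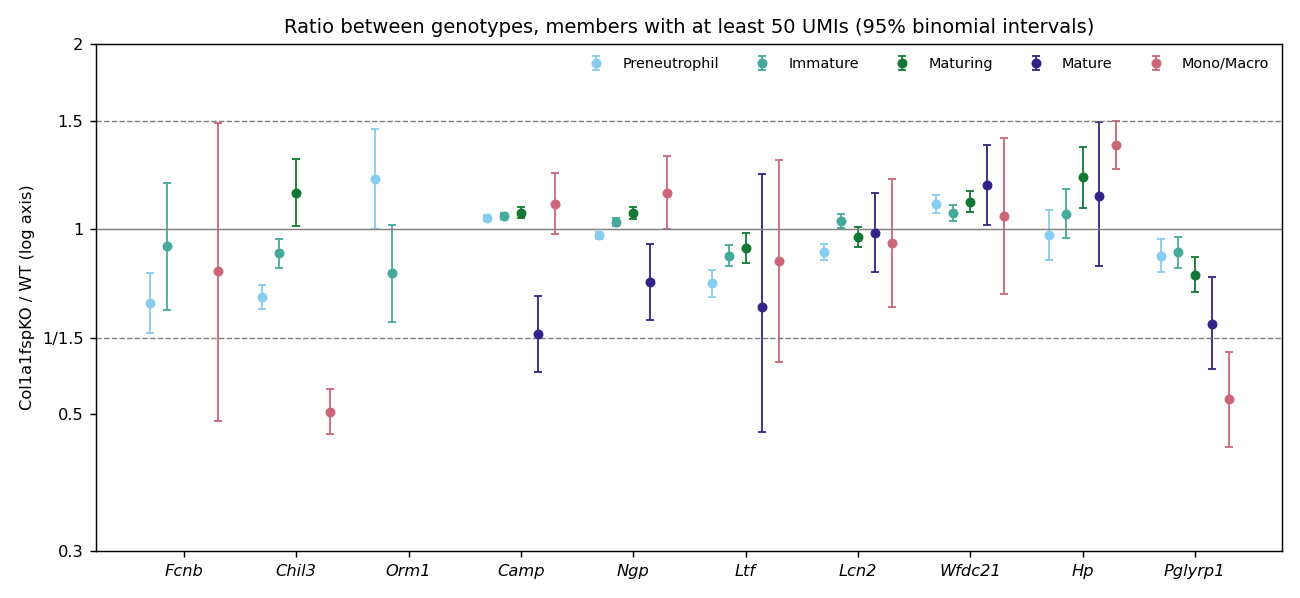
Ratio of the level in Col1a1fspKO to that in WT for genes with at least 50 UMIs in the class, on a log axis, in the 4 neutrophil stages and in Mono/Macro-like cells without those high in S100a8 and S100a9, with 95% exact binomial intervals and dashed lines at 1.5-fold. The neutrophil points lie between the dashed lines, and the Mono/Macro-like points of Chil3 (0.505) and Pglyrp1 (0.530) lie below them.

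Outside the neutrophil clusters, most of the signal of the 10 genes came from few cells. In 43 of 741 WT and 48 of 794 Col1a1fspKO cells, S100a8 and S100a9 together made up at least 2% of the cell's UMIs, whereas the median outside the neutrophils was 0.243% and 0.270%. These cells lay in the progenitor-like (9 WT and 10 Col1a1fspKO), Mono/Macro-like (13 and 14) and B cell-like (15 and 19) classes, among others. Without them the share of the 10 genes in the remaining cells went from 0.378% to 0.124% in WT and from 0.473% to 0.119% in Col1a1fspKO. What these cells are was not tested, and Scrublet called 5 doublets in each library. The genotype counts outside the neutrophils turned on them. In progenitor-like cells 5 of 9 genes were past 1.5-fold, all 5 higher in Col1a1fspKO (Camp, Ltf, Lcn2, Ngp and Wfdc21), against 10.1% of all genes in either direction and 3.8% higher. Without these cells 1 of 6 was past it (Hp, lower), against 11.4%. Camp in progenitor-like cells went from 3217 CPM in WT and 4847 in Col1a1fspKO to 364 (321 to 411) and 291 (251 to 336), and the levels below leave these cells out.

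**Figure D5:**
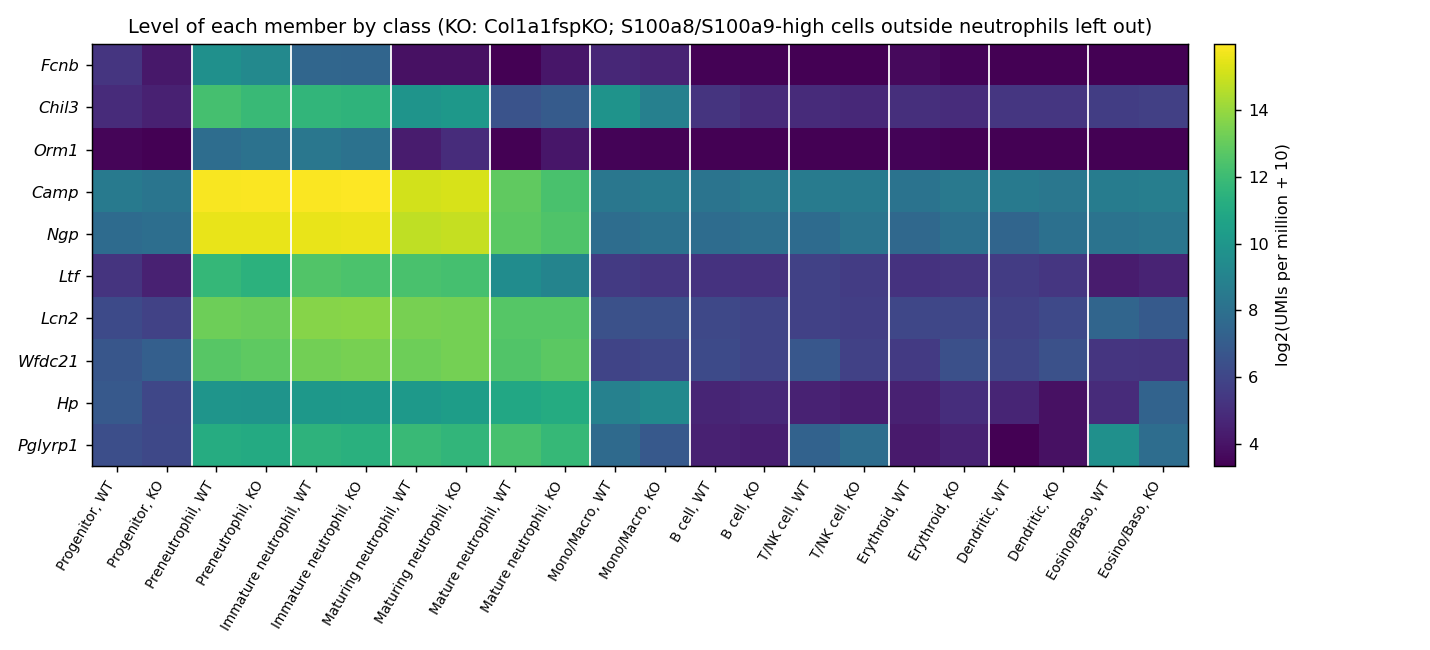
Level of each gene as log2(CPM + 10), by cell class and library (KO, Col1a1fspKO), with cells outside the neutrophil clusters that were high in S100a8 and S100a9 left out. Camp and Ngp are the brightest rows in the neutrophil columns other than that of Col1a1fspKO mature cells, where Wfdc21 and Lcn2 are higher, and outside them Chil3 and Hp stand out in Mono/Macro-like cells and Pglyrp1 in Eosino/Baso-like, Mono/Macro-like and T/NK cell-like cells.

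Chil3, Hp, Pglyrp1 and, at a much lower level, Fcnb were higher in Mono/Macro-like than in B cell-like cells out of proportion to Camp. In Mono/Macro-like cells Chil3 was at 886 CPM (843 to 929) in 264 WT cells and 447 (417 to 479) in 253 Col1a1fspKO cells, against 27.1 (19.7 to 36.2) and 19.3 (12.9 to 27.7) in B cell-like cells. Hp was at 464 (433 to 496) and 636 (600 to 673), against 15.03 (9.73 to 22.2) and 17.3 (11.3 to 25.3) in B cell-like cells. Pglyrp1 was at 199.97 (180 to 221) and 106 (91.5 to 122) CPM, against 12.02 (7.34 to 18.6) and 10.6 (6.07 to 17.3). Fcnb was at 16.7 (11.4 to 23.7) and 14.3 (9.32 to 20.9) CPM, from 31 and 26 UMIs, against 1 UMI in the B cell-like cells of each library. With each cell thinned to 2500 UMIs, Chil3 was found in 62.1% of WT and 43.9% of Col1a1fspKO Mono/Macro-like cells, but in 8.25% and 5.24% of B cell-like cells, which should lack it. Camp, by contrast, lay in a narrow range over these classes, at 314 and 345 CPM in Mono/Macro-like, 282 and 333 in B cell-like and 270.4 and 343 in erythroid-like cells. Whether this Camp signal comes from these cells or from background RNA was not tested.

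The proportions of the genes to each other also differed between the classes for some genes and not for others. In all neutrophils there were 6.49 UMIs of Chil3 for each 100 of Camp in WT and 4.88 in Col1a1fspKO, and in B cell-like cells 9.59 and 5.78, but in Mono/Macro-like cells 282 and 130. For Hp the values were 1.88 and 2.20 in neutrophils and 148 and 184 in Mono/Macro-like cells. For Fcnb they were 0.781 and 0.490 in neutrophils, 0.213 and 0.199 in B cell-like cells and 5.33 and 4.13 in Mono/Macro-like cells. Ngp, in contrast, held to 81.5 and 78.3 for each 100 of Camp in neutrophils and 70.8 and 73.8 in Mono/Macro-like cells. Over all cells, neutrophils held 67.4% of Hp UMIs in WT and 64.9% in Col1a1fspKO, and Mono/Macro-like cells 25.2% and 27.7%. For Camp, Ngp, Ltf, Lcn2, Orm1 and Wfdc21 the neutrophil share was between 91.9% and 94.8% in either library. Fcnb was the gene with the largest progenitor-like share, 15.04% of its UMIs in WT and 19.1% in Col1a1fspKO, with the cells high in S100a8 and S100a9 included. Of these 194 and 172 UMIs, 21 and 5 came from the other progenitor-like cells.

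In Mono/Macro-like cells Chil3 and Pglyrp1 were lower and Hp was higher in Col1a1fspKO. The ratio for Chil3 was 0.505 (0.464 to 0.550) and for Pglyrp1 0.530 (0.443 to 0.632), and these were the 2 of 9 genes past 1.5-fold, against 6.39% of all genes in either direction and 3.21% lower. The ratio for Hp was 1.37 (1.25 to 1.499), and that for Camp was 1.10 (0.982 to 1.23). With the cells high in S100a8 and S100a9 included, 4 of 9 were past 1.5-fold, Camp and Ngp higher and Chil3 and Pglyrp1 lower, against 6.77%. The class was made of 3 clusters, and in all 3 the direction was the same. In cluster 1, led by Wfdc17, Clec4a1 and Clec4a3, Chil3 was at 1460 CPM (1382 to 1540) in WT and 699 (645 to 756) in Col1a1fspKO. In cluster 8 it was at 221 (182 to 267) and 118 (90.1 to 151), and in cluster 10 at 453 (393 to 520) and 324 (272 to 384). Pglyrp1 ran from 57.9 to 298 CPM over these clusters, with ratios of 0.496 (0.3998 to 0.614), 0.640 (0.389 to 1.04) and 0.631 (0.394 to 0.994), and Hp had ratios of 1.46 (1.29 to 1.64), 1.29 (1.05 to 1.57) and 1.26 (1.04 to 1.54). The 2 mice of a library were pooled, and whether both contributed to these differences cannot be told.

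In T/NK cell-like cells Pglyrp1 was at 149.6 CPM (94.8 to 224) in 30 WT cells and 222 (171 to 283) in 58 Col1a1fspKO cells, above the B cell-like level, while Chil3 and Hp were at 19.5 and 13.01 CPM in WT and 17.1 and 10.3 in Col1a1fspKO. In Eosino/Baso-like cells, the rarest class with 17 WT and 9 Col1a1fspKO cells, Pglyrp1 was at 798 CPM (634 to 990) in WT and 224 (128 to 364) in Col1a1fspKO. These rest on 82 and 16 UMIs. Orm1 had few UMIs outside the neutrophils, with 1 UMI in 60 WT progenitor-like cells and 2 UMIs in 264 WT Mono/Macro-like cells. Over all cells outside the neutrophil clusters it had 4 UMIs in WT and 1 in Col1a1fspKO.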

How the data were processed

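Marrow cells of 1 library per genotype were captured with 10x Genomics Single Cell 3' Reagent Kits v2. For either library the authors deposited raw UMI counts, not normalized, with 1 row per gene and 1 column per cell, from Cell Ranger and mm10 (the submitters' processing notes also name Seurat 3.5.3). The limits of 200 to 7000 genes and 10% mitochondrial UMIs given in the methods removed 0 further cells, since every deposited cell met them. The median depth of 5534 UMIs per cell in WT and 4954 in Col1a1fspKO limits what can be seen in 1 cell, so the UMIs of all cells in a class were added up.

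Both libraries were clustered together with Seurat 5.3.0 in R 4.3.3 (2000 variable genes, 27 principal components, resolution 0.8), without integration and with doublets kept. The 10 genes, their relatives, the Ly6 genes and sex-linked genes, 37 in all, took no part in the clustering. A class or stage name was given from listed markers by the mean z-score of its log2(CPM + 10) levels, highest first. That rule was set with the clusters already in view. The 10 genes, the other gene lists and the named comparisons were chosen with earlier results of these data known. Calculations used Python 3.11.15 and scipy 1.17.1, and figures used matplotlib 3.10.9. The ratio intervals were tested only on simulated Poisson counts, the model they assume. That checks the calculation and not whether real cells vary more. A gene was counted as changed between genotypes past 1.5-fold with at least 50 UMIs over both libraries in a class, and between stages past 2-fold on log2(CPM + 10) in both libraries. All 10 genes are named, and of the other lists those genes with at least 50 UMIs in the neutrophil clusters or with a role beside the 10. Genes of like pattern are the 10 with the highest Pearson correlation with their mean over clusters of at least 20 cells per library, among genes with at least 100 UMIs in each library, and the best match of single genes. Cells were thinned to 2500 UMIs for shares of cells, for correlations between cells and for the Retnlg quartiles. Cells outside the neutrophil clusters with at least 2% of UMIs from S100a8 and S100a9 were left out where stated, a choice made after seeing the data. Promoters were read from RefSeq tables of GRCm38.p6. With 1 library per genotype no test was possible and no p-value is given.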

Additional observations from a re-analysis of the deposited data

Results flagged for a closer look

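The genotype ratio of Chil3 differed in direction between cell classes. Chil3 in Col1a1fspKO relative to WT was 0.775 in preneutrophils, 0.914 in immature neutrophils and 0.505 in Mono/Macro-like cells without those high in S100a8 and S100a9, but 1.14 in maturing neutrophils, where Chil3 was at 931 CPM in WT and 1066 in Col1a1fspKO. The genotype ratio of Hp was 0.523 in progenitor-like cells without those high in S100a8 and S100a9, against 1.21 in maturing neutrophils and 1.37 in Mono/Macro-like cells, the latter also without such cells. The progenitor-like value of Hp rests on 76 WT and 35 Col1a1fspKO UMIs. All of these ratios had counting intervals that excluded 1. With 1 library per genotype the differences between classes were not tested, and the share of each mouse in a pool is unknown.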

How the results depend on the processing

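Under 16 alternatives, 104 of 135 counts, levels and correlations stayed near the reported value and 31 moved. Of 218 log2 ratios of single genes 171 stayed near it, 46 moved and 1 that was past 1.5-fold changed its sign, Camp in Mono/Macro-like cells at -0.01319 with 15 principal components. The sign also changed in 15 values of 6 ratios that were not past 1.5-fold (Ltf, Lcn2, Fcnb and Wfdc21 in Mono/Macro-like cells, Camp and Lcn2 over all neutrophils), which then lay between -0.238 and 0.030. In Mono/Macro-like cells the ratio of Chil3 stayed between 0.487 and 0.523, that of Pglyrp1 between 0.490 and 0.649 and that of Hp between 1.33 and 1.42. The count past 1.5-fold in progenitor-like cells went from 5 to 1 with all variable genes used for clustering, with thinned cells, with the mean of single-cell CPM and without the cells high in S100a8 and S100a9, and to 3 at resolution 0.4 and with doublets removed. In Mono/Macro-like cells it went from 4 to 2 with 15 principal components, CCA integration, thinned cells, the mean of single-cell CPM and without the cells high in S100a8 and S100a9. Over all cells it went from 0 to 1 (Fcnb) with thinned cells, the mean of single-cell CPM and without the cells high in S100a8 and S100a9. Over all neutrophils it went from 1 to 0 when 155 cells under 2909 UMIs, all of Col1a1fspKO, were left out. Of the pairs of gene and stage, 0 became 1 with that minimum (Pglyrp1 in mature cells), 1 without the 20 most abundant genes (Camp in mature cells), 1 of 38 with a minimum of 1 UMI in each library (Orm1 in maturing cells), 2 with the mean of single-cell CPM (Camp and Ltf in mature cells) and 3 with thinned cells (these 2, and Orm1 in preneutrophils). From immature to maturing cells 5 rather than 3 genes were lower with CCA integration, which adds Camp and Ngp. The share of the 10 genes in neutrophil UMIs, 12.63% in Col1a1fspKO and 13.17% in WT, was 11.76% and 12.66% with thinned cells and 11.75% and 12.6% as the mean over cells. Outside the neutrophils it was 0.367% and 0.3985% with thinned cells, 0.3716% and 0.3921% as the mean over cells, and 0.1185% and 0.1238% without the cells high in S100a8 and S100a9. The cause of these moves was not tested. At resolution 0.4, with 15 principal components and with CCA integration no cluster matched the mature one, so its values could not be given there. No paired analysis was possible because each genotype had 1 library, and for the same reason no library could be left out. Leaving out the cells high in S100a8 and S100a9 was chosen after seeing the data. The 11 mature WT cells and the lowest counts, above all Orm1 and Fcnb beyond the immature stage, set the depth limit.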

Other observations

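Relatives of the 10 genes and genes of other granules were also read over all neutrophil clusters, where 12.7% of all genes were past 1.5-fold between the genotypes. Of 20 relatives 12 were listed and 8 had at least 50 UMIs, and 3 of these 8 were higher in Col1a1fspKO: Wfdc17 (ratio 4.63, 2.31 to 10.3), Stfa1 (4.80, 3.47 to 6.76) and BC100530 (3.27, 2.46 to 4.39). Wfdc17 rests on 58 UMIs in the neutrophils, at 4.17 CPM in WT and 19.3 in Col1a1fspKO. In Mono/Macro-like cells Wfdc17 was far higher, at 394 CPM in WT and 543 in Col1a1fspKO. Stfa1 and BC100530 are stefins, inhibitors of cysteine proteases, and were among the leading genes of the mature cluster, to which Col1a1fspKO contributed 47 cells and WT 11. In that cluster BC100530 was at 472 CPM in WT and 674 in Col1a1fspKO, and Stfa1 was at 0 and 851. Slpi, the secretory leukocyte protease inhibitor and a relative of Wfdc21, went from 524 CPM in immature to 2496 in mature cells in WT and from 627 to 2369 in Col1a1fspKO, past 2-fold in both. Chil1, the relative of Chil3, was not highest early: it was at 190.3 CPM in preneutrophils and 305 in mature cells in WT, and at 160.5 and 447 in Col1a1fspKO.

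Of 7 genes listed with the primary granules, 4 had at least 50 UMIs over the neutrophil clusters, and 3 were lower in Col1a1fspKO. These were Elane (ratio 0.604, 0.503 to 0.724), Prtn3 (0.451, 0.364 to 0.557) and Ms4a3, which encodes a membrane protein (0.578, 0.478 to 0.697). All 3 were also among the markers of the progenitor-like class. Within preneutrophils Elane was at 279.6 CPM in WT and 229.9 in Col1a1fspKO, Prtn3 at 247 and 149.7, and Ms4a3 at 251 and 181. Of 13 other secondary granule genes 1 was lower, Itgb2l, an integrin beta subunit related to Itgb2, at 197 CPM in WT and 97.6 in Col1a1fspKO (ratio 0.495, 0.422 to 0.579). By stage the levels were 169 and 74.2 CPM in preneutrophils, 218 and 109 in immature, 232 and 117 in maturing and 194 and 78.0 in mature cells. Of 5 tertiary granule genes 2 had at least 50 UMIs, and Adam8, a membrane metalloprotease, was higher in Col1a1fspKO (ratio 1.81, 1.32 to 2.53). Among 15 other acute-phase genes 4 were listed, and among 10 regulators and 8 receptors or partners 9 and 7 were listed, with 0 genes past 1.5-fold among the 2, 8 and 2 that reached 50 UMIs.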
